A study of Mus musculus with 13 samples.

Results

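Nuclear genes of oxidative phosphorylation were followed in mouse glioblastomas and normal brain by RNA sequencing. The set held 103 of the 55416 genes counted: every protein-coding gene of the GENCODE M21 annotation whose symbol begins with Nduf, Cox and a digit, Uqcr or Atp5, or is Sdha, Sdhb, Sdhc or Sdhd. The rule reads symbols and annotation only, though the set was proposed with earlier results of these data known. Sdha, Ndufs1 and Atp5b, which stand for the set, were detected in all 13 libraries. Of the 103 genes, 53 passed a filter on low counts and were tested, among the 7722 genes tested in all. Another 45 had at least 1 read but were too low to test, and 5 had no read in any library (Cox17, Cox6b2, Cox8b, Cox8c and 1 of 2 entries named Atp5o).

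The tumors arose from a lentivirus injected into the motor cortex of CNP-Cre mice, which carry the allele Cnptm1(cre)Kan and so make Cre recombinase in cells that use the promoter of Cnp, a gene of the oligodendrocyte lineage. The PDGFB tumors (n = 5) had received PDGFB with shRNA-p53, and the RAS tumors (n = 5) HRasV12 with shRNA-p53, so both tumor groups share the hairpin against p53 and the Cre allele. GFP+ tissue was collected from 5 mice per tumor group at the end point, and the normal samples (n = 3) were normal brain tissue labelled WT. The labels give no age, no brain region for the normal samples and no number of animals behind them. The title of normal brain 3 begins MBT where those of the other normal samples begin NBT, with no explanation. The labels also mention normal brain trimmed from the tumors under a microscope, without saying whether the normal samples came from it. The p-values therefore measure the spread between these samples, which may be partly technical. GFP+ pieces of tumor can hold host cells, and in bulk tissue fewer cells of a type and less RNA per cell cannot be told apart.

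Oxidative phosphorylation passes electrons from NADH (complex I) and succinate (complex II) through ubiquinone, complex III, cytochrome c and complex IV to oxygen, and ATP synthase uses the proton gradient that results. Most subunits are encoded in the nucleus and imported, while a small set in complexes I, III, IV and ATP synthase is encoded by the mitochondrial genome, so both genomes supply parts of the same complexes. In the brain the pathway provides most ATP, with a large demand from neurons.

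Sequencing gave 13952738 to 15607754 reads per library. Between 529162 and 643055 of them (4.24% to 4.75% of the uniquely mapped ones) were counted for a gene. The 103 genes together received 1077 to 1636 reads per library, which was 0.197% to 0.254% of the reads counted. A tested gene of the set had a median of 11.6 reads per library and the 7722 tested genes 17.6, so single genes here rest on few reads. Over all 7722 tested genes, RAS tumor 2 was the highest RAS library for 29.2% and RAS tumor 5 the lowest for 26.5%. Counts without RAS tumor 2 are given below.

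Some promoters of the set hold motifs known from respiratory genes, which are shown because they were not used to choose the genes. Each of the first 3 motifs below was found in a minority of the set, and no test of enrichment was made. RefSeq windows (GRCm38.p6, from 250 bases before to 50 after a transcription start) were found for 82 of the 103 genes, or 81 symbols, since 2 entries are named Atp5o. All motifs were searched on both strands. The NRF1 motif, GCGCA and GCGC with any 1 base between them, was found in 19 of the 81 (23.5%), against 5.19% of all 27025 genes with a window. The ETS core CCGGAAG, bound by GABP among others, was found in 23 (28.4%, against 9.93%), and AAGATGGCG, a YY1 site, in 9 (11.1%, against 1.64%). CCAAT was about as frequent as elsewhere (43.2% against 41.1%), and TATAAA was found in 9.88% against 15.7%. The stretches below are written 5′ to 3′ on the strand of the gene, with the match in capitals. Those of Sdha and Atp5c1 overlap annotated exons, and the others do not. Sdha, the succinate-oxidising subunit of complex II, holds 3 NRF1 matches, at chr13:74350319-74350348, chr13:74350276-74350305 and chr13:74350241-74350260 (minus strand).
Sdha, farthest from the start: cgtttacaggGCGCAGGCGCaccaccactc
Sdha, middle: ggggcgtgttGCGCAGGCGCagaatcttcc
Sdha, nearest the start: gcgactcggtGCGCAAGCGC
Atp5c1, chr2:10080433-10080459, minus strand: ctgagctcccGCGCACGCGCactgagt
Cox6a1, chr5:115349056-115349085, minus strand: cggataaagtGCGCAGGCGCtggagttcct
Atp5h, chr11:115420041-115420070, minus strand: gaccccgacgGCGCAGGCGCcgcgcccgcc
Atp5e, ETS match, chr2:174464186-174464214, minus strand: tacggccacagCTTCCGGtagccgctcgg
Cox20, ETS match, chr1:178319039-178319067, plus strand: gccagggcgggCTTCCGGacagccccagg
Only Atp5h, Atp5k, Sdhd and Cox6a1 held both an NRF1 and an ETS match. A match describes letters in these windows and shows no binding. Among tested genes with a window, 2 of 8 with an NRF1 match and 12 of 35 without one were called in some comparison below, and for the ETS core 4 of 13 and 10 of 30, counts too small to compare.

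Many of these genes lie across from another gene, and this bears on every value. Exons of 33 genes of the set overlap an exon on the opposite strand; those 33 held 53.1% of the reads of the set and 21 of them were tested. The other 70, of which 5 lie opposite an intron, held 46.9%, and 32 were tested. Of the 38 overlapping pairs, 19 were head-to-head at the gene starts, 15 tail-to-tail and 4 nested. In 25 pairs more reads were deposited under the opposite gene than under the respiratory gene, and in 15 pairs at least 10 times as many. Cox5a, a nuclear subunit of complex IV, had 148 reads over all libraries and Gm26631, opposite 269 of its bases, 15076. Cox4i1 had 355 and Emc8, head-to-head with it, 12544. Whether the counting used strand is not given in the sources used here. How many reads of an opposite partner stand under a gene's name therefore cannot be told. Of all reads, 0.0516% to 0.0805% per library were set aside as ambiguous and 84.5% to 87.3% fell in no gene. Over the whole table, 84.0% of the counted reads stood under the 8931 genes opposite an exon, with 43204 other genes in the annotation. Among mitochondrially encoded genes, mt-Nd6, the only protein-coding gene on its strand of that genome, held 11820 to 18667 CPM in PDGFB tumors, against 4415 to 5398 for the 12 others together. Whether the deposited counts are reads of each gene's own strand, or of the strand opposite to it, was not tested. This limit applies to every value below, which is given as deposited under the gene's name, and to genes with no opposite exon as well. Below, "opposite" and a name give the partner. In addition, Cox16, Cox17, Ndufb2, Ndufb8, Ndufb9, Atp5g2 and Atp5o share exons with another gene of their own strand, which makes their counts uncertain.

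The summed level of the set was similar in the 3 groups. In counts per 1000000 reads counted for genes (CPM), the 103 genes summed to 2044, 2104 and 2160 (lowest, median, highest) in PDGFB tumors, 1967, 2099 and 2544 in RAS tumors and 2035, 2107 and 2279 in normal brain. The groups overlapped. Scaling by TMM factors, which centre most genes on no change, lowered PDGFB tumors to 1907 to 2011, below all normal brains (2242 to 2448) and all RAS tumors (2044 to 2740). The 70 genes with no opposite exon summed to less in every PDGFB tumor than in any normal brain on both scales: 846 to 968 against 969 to 1114 CPM by library totals, where the ranges nearly touch, and 778 to 901 against 1068 to 1197 with TMM factors. The 33 genes opposite an exon reached 1137 to 1258 CPM in PDGFB tumors and 1066 to 1165 in normal brain by library totals, but 1071 to 1156 and 1174 to 1252 with TMM factors, so the groups overlapped on the first scale and PDGFB tumors were all lower on the second. RAS tumors overlapped normal brain for both classes on both scales.

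**Figure D1:**
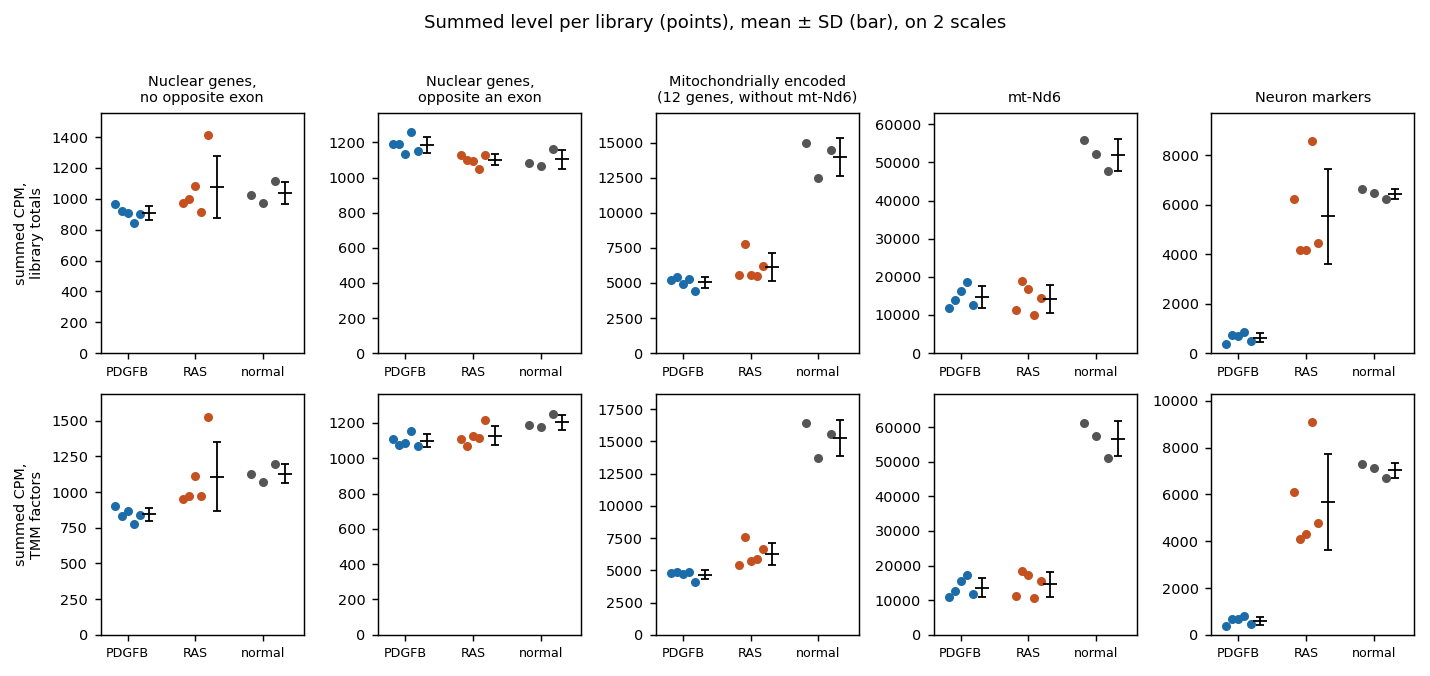
Summed CPM per library (points) with the group mean ± SD (bars) for nuclear respiratory genes with and without an opposite exon, mitochondrially encoded genes and neuron markers, by library totals (top) and with TMM factors (bottom). Mitochondrially encoded genes sit far lower in all 10 tumors than in the 3 normal brains, while the nuclear sums lie close together, with RAS tumor 5 highest at 1414 CPM among genes with no opposite exon.

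Gene by gene, most of the calls against normal brain were downward in both tumor groups, and fewer genes were called than elsewhere. Tests were edgeR's quasi-likelihood test with Benjamini-Hochberg adjustment over all 7722 genes, and a gene was called at an adjusted p under 0.05. Against normal brain, PDGFB tumors had 12 of 53 genes called (22.6%), where 45.3% of all tested genes were called. Of the 12, 2 were higher (3.77% of 53, background 20.2%) and 10 lower (18.9%, background 25.1%). RAS tumors against normal brain had 10 called (18.9%, background 56.2%), 2 higher (background 26.9%) and 8 lower (background 29.3%). PDGFB against RAS tumors had 6 called (11.3%, background 32.1%), 1 higher (background 14.6%) and 5 lower (background 17.4%). The share called was thus below that of all genes in each comparison, for genes with fewer reads than most.

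Groups did not overlap in CPM for 10 of the 53 genes in PDGFB tumors against normal (background 51.4%), 10 in RAS tumors against normal (background 52.1%) and 2 in PDGFB against RAS tumors (background 20.3%). The median log2 fold change of the 53 genes was -0.46 in PDGFB tumors against normal, with 42 below 0, where the median of all tested genes was -0.00. It was -0.05 in RAS tumors against normal (29 below 0; all genes 0.02) and -0.34 in PDGFB against RAS tumors (41 below 0; all genes 0.03). Under library totals all genes moved up by 0.23, 0.093 and 0.14 and the medians of the set became -0.23, 0.05 and -0.20, so that of the RAS tumors turned in sign. Without RAS tumor 2 the calls were 13, 12 and 9. The calls for PDGFB tumors against normal fell to 5 without normal brain 2 and 7 without normal brain 1, and those for RAS tumors against normal to 6 without RAS tumor 1, normal brain 1 or normal brain 3. With the low-count filter removed (23301 genes fitted) 16 of the 28 calls ended. The 12 others were Atp5d, Cox5b, Cox20, Ndufaf3 and Sdha in PDGFB tumors and Atp5e, Cox11, Ndufaf3, Ndufb2 and Ndufs3 in RAS tumors, both against normal, and Atp5e and Cox20 between the tumors. With library totals 8 ended: Atp5g1, Cox4i1, Cox8a, Ndufa10 and Ndufs1 in PDGFB tumors, Cox6c and Cox8a in RAS tumors and Atp5c1 between the tumors. DESeq2 ended those of Cox4i1 and Ndufs1 in PDGFB tumors and of Atp5c1, and a refit of genes with no opposite exon those of Cox8a in PDGFB tumors and of Atp5c1 and Cox5b between the tumors. The comparisons share samples: 6 of the 53 genes (Atp5a1, Atp5d, Cox8a, Ndufaf3, Ndufs1 and Ndufs3) were called the same way in both tumor groups against the same 3 normal brains. The share of all tested genes called the same way in both was not computed, so this count has no background beside it.

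**Figure D2:**
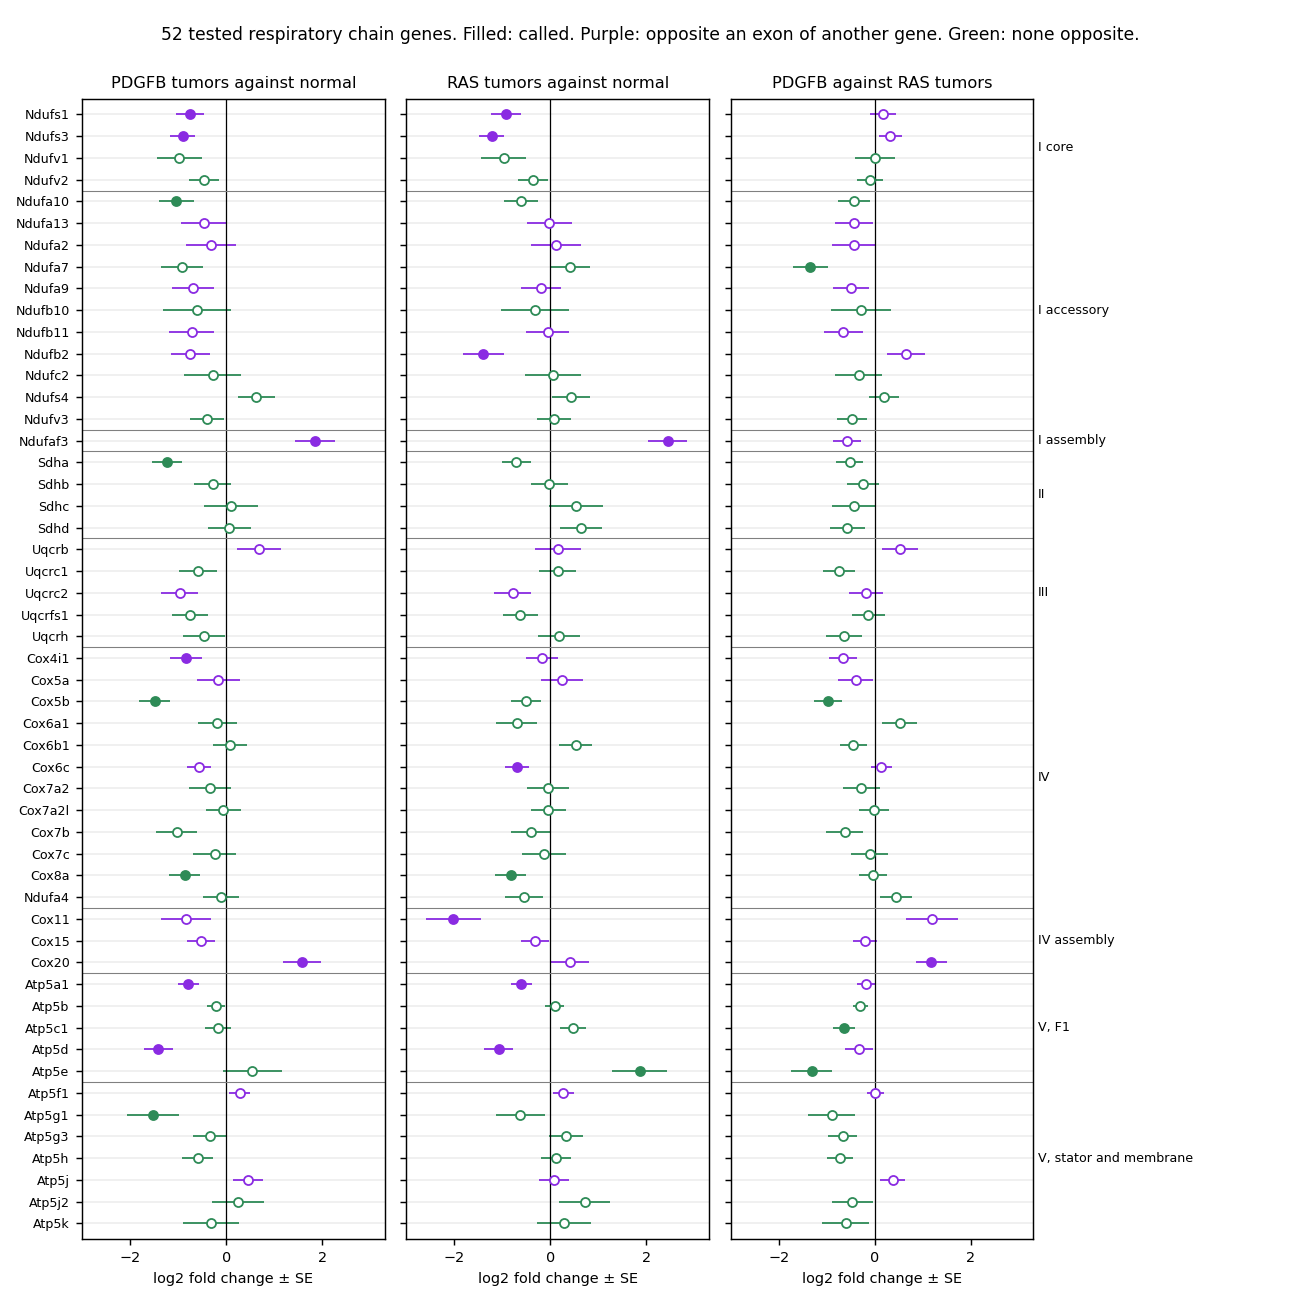
Log2 fold change ± SE of 52 of the 53 tested genes in the 3 comparisons, ordered by complex; filled points passed an adjusted p under 0.05, purple points lie opposite an exon of another gene and green points do not. In the left panel 41 of 52 points lie below 0 and 12 are filled, and Ndufaf3 and Cox20 are the 2 filled points above 0.

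Complex I, the entry point for electrons of NADH, had 2 lower core subunits and 1 higher assembly factor in both tumor groups. Of 5 tested core subunits, Ndufs1 and Ndufs3 were lower in each, and of 11 accessory subunits 1 was lower in each. Among all tested genes 25.1% were lower in PDGFB tumors and 29.3% in RAS tumors, so the accessory subunits lie below that share and the core subunits are too few to compare with it. Ndufs1 (chromosome 1, 63143596 to 63176833, minus strand, GRCm38) encodes the largest iron-sulfur subunit of the arm that takes up electrons. It had 14, 26, 20, 16 and 19 reads in PDGFB tumors 1 to 5, 13, 20, 8, 18 and 18 in RAS tumors 1 to 5 and 26, 21 and 30 in the normal brains. In CPM, 1 PDGFB tumor reached into the normal range and no RAS tumor did. Its log2 fold change was -0.76 ± 0.30 (SE, adjusted p = 0.0470) in PDGFB tumors and -0.93 ± 0.30 (adjusted p = 0.0151) in RAS tumors. The first call was lost when any library other than PDGFB tumor 2 or RAS tumor 2 was left out (adjusted p 0.0557 to 0.153). The second was lost on leaving out RAS tumor 1, RAS tumor 3, normal brain 1 or normal brain 3 (adjusted p 0.0508 to 0.0632).

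The opposite partners of Ndufs1 changed as well. Ino80dos, which overlaps 489 of its exon bases tail-to-tail, had 3552 reads over all libraries against 249 for Ndufs1, and was lower in PDGFB tumors (log2 fold change -0.45, adjusted p = 0.042) and RAS tumors (-0.97, adjusted p = 1.5e-04). Eef1b2, a translation elongation factor gene that overlaps 9 bases at the other end, was higher in both (1.27 and 2.71, adjusted p = 0.031 and 9.9e-05). The part of either partner in the count of Ndufs1 was not tested.

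Ndufs3, a core subunit of the arm that passes electrons to ubiquinone (opposite Kbtbd4), had 21, 19, 24, 26 and 25 reads in PDGFB tumors, 20, 20, 14, 17 and 13 in RAS tumors and 34, 40 and 28 in normal brain. Both tumor groups lay below all normal brains in CPM. The log2 fold changes were -0.91 ± 0.26 (adjusted p = 0.00817) and -1.22 ± 0.26 (adjusted p = 7.17e-04). The call in PDGFB tumors ended without normal brain 2 (adjusted p = 0.117) and with no low-count filter (adjusted p = 0.125), and that in RAS tumors held under every alternative run. Kbtbd4 itself was not called against normal brain (-0.19 and 0.40).

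The core subunits Ndufv1 and Ndufv2, both with no opposite exon, were not called, at -0.98 and -0.46 in PDGFB tumors and -0.98 and -0.37 in RAS tumors against normal.

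Among accessory subunits, Ndufa10 averaged 14.6 ± 2.85 CPM (SD, n = 5) in PDGFB tumors, 17.8 ± 6.93 (n = 5) in RAS tumors and 25.8 ± 5.91 (n = 3) in normal brain. PDGFB tumors did not overlap normal brain, at a log2 fold change of -1.04 ± 0.37 (adjusted p = 0.0281), a call lost on leaving out PDGFB tumor 3, PDGFB tumor 5, RAS tumor 1, RAS tumor 3 or one of the normal brains (adjusted p 0.0502 to 0.186). Ndufb2, of the membrane arm (opposite Gm16272 and Braf), was lower in RAS tumors, with 5, 8, 8, 2 and 8 reads against 18, 6 and 20 in normal brain. Normal brain 2 lay within the RAS range; the log2 fold change was -1.40 ± 0.43 (adjusted p = 0.00992) and the call ended without normal brain 1 or 3 (adjusted p 0.0676 and 0.0737). Ndufa7 had 3, 7, 5, 5 and 4 reads in PDGFB tumors and 9, 7, 13, 11 and 16 in RAS tumors, and the groups met only at PDGFB tumor 2 and RAS tumor 2. It was lower in PDGFB than in RAS tumors (log2 fold change -1.34 ± 0.37, adjusted p = 0.0096; 0.0524 with no low-count filter). Ndufv3, the accessory subunit with the highest mean level in CPM, was not called in any comparison (log2 fold changes -0.40, 0.08 and -0.48).

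Ndufaf3, an assembly factor of complex I that is not part of the finished complex, was the gene of the set with the largest rise. It had 41, 26, 26, 26 and 34 reads in PDGFB tumors, 36, 27, 56, 28 and 60 in RAS tumors and 9, 3 and 8 in normal brain. Every tumor lay above every normal brain. Log2 fold changes were 1.86 ± 0.41 (adjusted p = 0.00152) and 2.44 ± 0.41 (adjusted p = 8.91e-05), and both calls held under every alternative run. It lies on chromosome 9 (108565537 to 108567434, minus strand) with 48 bases opposite Impdh2, which had 155 reads against 380 for Ndufaf3 and was not called (0.33 and 0.84). The other 7 complex I assembly factors were too low to test, with 3 to 52 reads over all libraries.

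**Figure D3:**
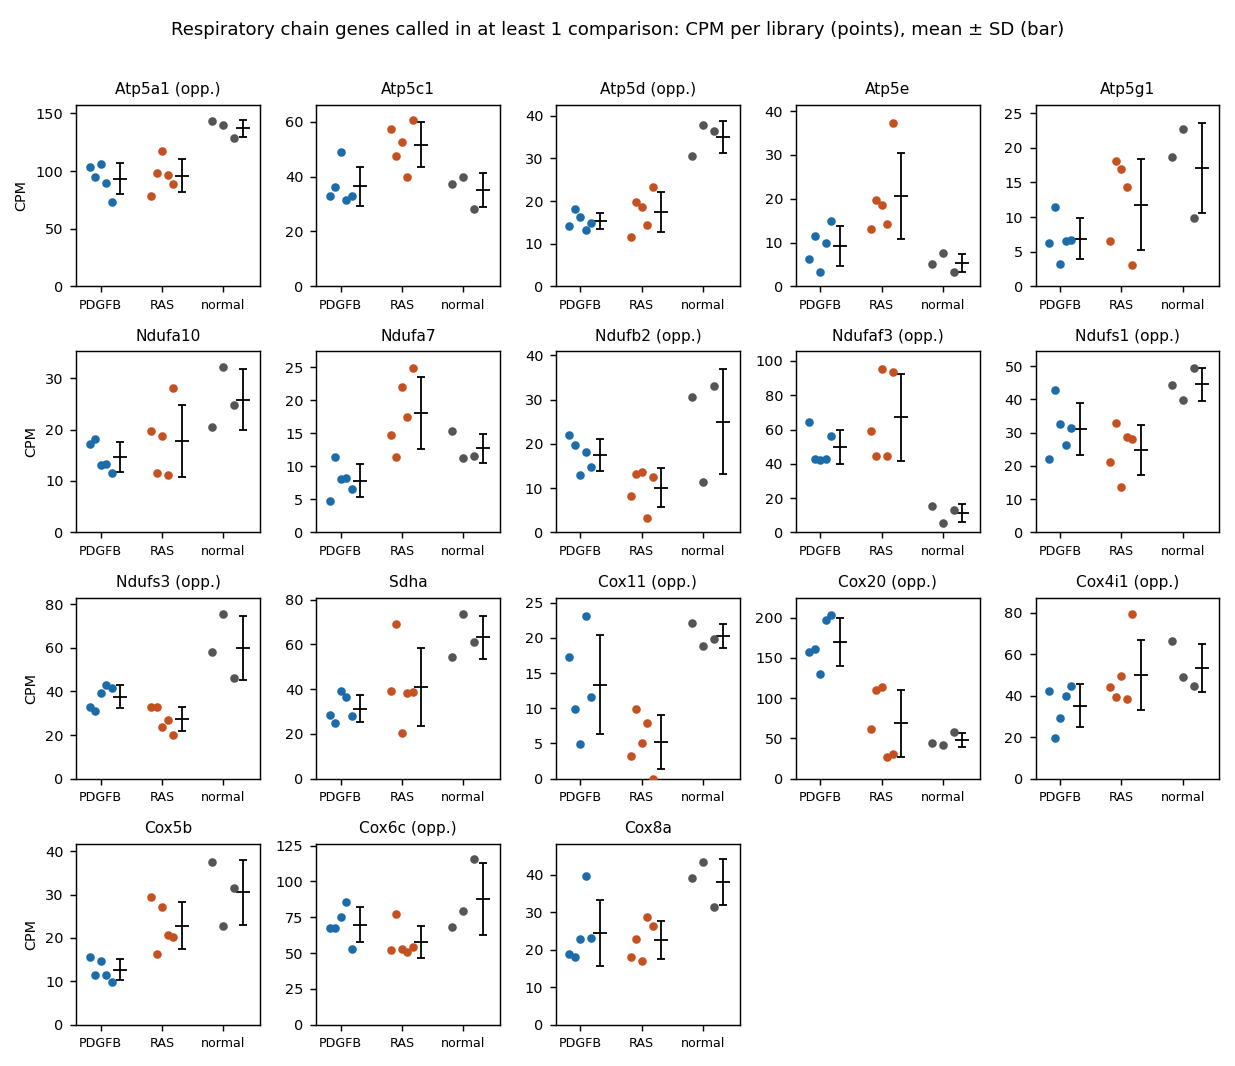
CPM in each library (points) and group mean ± SD (bars) of 18 of the 19 genes called in at least 1 comparison; "opp." marks a gene opposite an exon of another gene, and each axis starts at 0. Ndufaf3 is above normal brain in all 10 tumors, Cox20 in all 5 PDGFB tumors, and Sdha and Cox5b are below normal brain in all 5 PDGFB tumors.

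Complex II, the succinate dehydrogenase that also belongs to the tricarboxylic acid cycle, had 1 of its 4 subunits lower in PDGFB tumors. None was called in RAS tumors. Among all tested genes 25.1% were lower in PDGFB tumors, and 4 subunits are too few to compare with that share. Sdha (chromosome 13, 74322254 to 74350280, minus strand), the flavin subunit where succinate is oxidised, had 18, 15, 24, 22 and 17 reads in PDGFB tumors, 24, 42, 12, 24 and 25 in RAS tumors and 32, 39 and 37 in normal brain. All PDGFB tumors were below normal brain, and RAS tumor 2 alone reached the normal range in CPM. The log2 fold change was -1.24 ± 0.31 (adjusted p = 0.00373) in PDGFB tumors, a call that held under every alternative run. In RAS tumors it was -0.71 ± 0.31 and missed the threshold (adjusted p = 0.0568), but it passed without RAS tumor 2 (-0.95, adjusted p = 0.00965). The difference between the tumor groups was not called (-0.53 ± 0.28, adjusted p = 0.166). Sdha overlaps no opposite exon, and the limit on strand given above holds for it too. Sdhb, the iron-sulfur subunit, and the membrane anchors Sdhc and Sdhd had log2 fold changes of -0.28, 0.10 and 0.07 in PDGFB tumors and -0.03, 0.53 and 0.64 in RAS tumors, none called.

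Complex III, which moves electrons from ubiquinone to cytochrome c, had none of its 5 tested subunits called in any comparison. Fold changes ranged from -0.97 (Uqcrc2, adjusted p = 0.0514) to 0.69 (Uqcrb) in PDGFB tumors and from -0.79 (Uqcrc2) to 0.18 (Uqcrh) in RAS tumors, on the log2 scale. Uqcrh, the hinge subunit that contacts cytochrome c1, had 17, 17, 21, 25 and 12 reads in PDGFB tumors, 16, 24, 29, 9 and 52 in RAS tumors and 18, 14 and 29 in normal brain. The groups overlapped, and RAS tumor 5 was the highest.

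Complex IV, the oxidase that reduces oxygen, had 3 of 12 tested subunits lower in PDGFB tumors and 2 in RAS tumors, and none higher, shares no larger than the 25.1% and 29.3% of all tested genes. Cox5b, a nuclear subunit on the matrix side with no opposite exon, had 10, 7, 9, 7 and 6 reads in PDGFB tumors, 18, 10, 16, 13 and 13 in RAS tumors and 22, 12 and 19 in normal brain. PDGFB tumors were the lowest group and overlapped neither of the others in CPM. Log2 fold changes were -1.49 ± 0.33 (adjusted p = 0.00133) against normal, which held under every alternative run, and -0.97 ± 0.30 (adjusted p = 0.0186) against RAS tumors, which ended without RAS tumor 1 (adjusted p = 0.0518), with no low-count filter (0.139) and in a refit of genes with no opposite exon (0.0510). RAS tumors did not pass against normal (-0.52, adjusted p = 0.166).

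Cox8a, a small membrane subunit, had 12, 11, 14, 24 and 14 reads in PDGFB tumors, 11, 14, 10, 18 and 17 in RAS tumors and 23, 23 and 19 in normal brain. PDGFB tumor 4 overlapped normal brain and no RAS tumor did. Its log2 fold changes of -0.86 ± 0.32 (adjusted p = 0.0342) and -0.83 ± 0.32 (adjusted p = 0.0352) passed narrowly. The first was lost on leaving out any library but PDGFB tumor 4, RAS tumor 2 or normal brain 3 (adjusted p 0.0536 to 0.182). The second was lost on leaving out RAS tumor 1, 2 or 3, or else normal brain 1 or 2 (0.0505 to 0.182).

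Cox4i1, the common form of subunit 4 (opposite Emc8), was lower in PDGFB tumors: 12 to 27 reads against 26 to 39 in normal brain, at -0.84 ± 0.33 on the log2 scale (adjusted p = 0.0461). The groups overlapped in CPM, and the call was lost on leaving out PDGFB tumor 2, 3 or 4, one of RAS tumors 1, 3 and 4, or one of the normal brains (adjusted p 0.0558 to 0.291). Emc8 was also lower in PDGFB tumors (-0.83, adjusted p = 0.0022) and in RAS tumors (-0.61, adjusted p = 0.013); its part in the count of Cox4i1 was not tested. Cox6c (opposite Vps13b) was lower in RAS tumors, at 57.5 ± 11.1 CPM (SD, n = 5) against 87.7 ± 24.9 (n = 3), with a log2 fold change of -0.70 ± 0.25 (adjusted p = 0.0239). RAS tumor 2 overlapped normal brain, and the call was lost on leaving out any other RAS tumor, or normal brain 2 or 3 (adjusted p 0.0524 to 0.187).

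Several subunits of complex IV have isoforms for muscle, lung, testis or low oxygen. Those of the set (Cox4i2, Cox6a2, Cox6b2, Cox7a1, Cox7b2, Cox8b, Cox8c and Ndufa4l2) summed to 0 to 12.7 CPM in every library, and none could be tested. Of their common counterparts, Cox6a1, Cox6b1, Cox7a2, Cox7b and Ndufa4 were not called in any comparison. Their log2 fold changes in PDGFB tumors against normal were -0.19, 0.08, -0.34, -1.03 and -0.11, and in RAS tumors -0.71, 0.53, -0.06, -0.40 and -0.55. Ndufa4l2, known as a gene induced by low oxygen (opposite Shmt2), had 0 to 5 reads per library.

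Of 3 tested assembly factors of complex IV, Cox20 was higher in PDGFB tumors and Cox11 lower in RAS tumors, each against normal brain, and neither was called in the other tumor group. Cox20, a chaperone of the mitochondrially encoded subunit 2 (chromosome 1, 178319130 to 178322693, plus strand), had 100, 98, 80, 119 and 123 reads in PDGFB tumors, 38, 67, 67, 17 and 20 in RAS tumors and 26, 22 and 35 in normal brain. PDGFB tumors lay above both other groups, while RAS tumors ranged from below to above normal brain. Log2 fold changes were 1.58 ± 0.40 (adjusted p = 0.00365) against normal and 1.18 ± 0.32 (adjusted p = 0.00962) against RAS tumors, and both held under every alternative run that kept the gene. The gene lies almost whole across from the end of Hnrnpu: 804 of its 883 exon bases (91.1%) overlap that gene, which had 4184 reads against 812. Hnrnpu, an abundant RNA-binding protein gene, was not called (0.21, -0.18 and 0.38). In CPM, however, it too was higher in every PDGFB tumor (585 to 778) than in any RAS tumor (406 to 522) or normal brain (425 to 559). The part of Hnrnpu in the count of Cox20 was not tested. Per exon length Cox20 was the highest of the set, at 116 reads per kilobase of exon and 1000000 counted reads (RPKM), followed by Atp5f1 at 53.1, Cox8a at 43.4 and Atp5b at 40.9.

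Cox11, which delivers copper to the oxidase (opposite Tom1l1 over 688 bases), had 11, 6, 3, 14 and 7 reads in PDGFB tumors, 2, 6, 3, 5 and 0 in RAS tumors and 13, 10 and 12 in normal brain. All RAS tumors were below normal brain, and PDGFB tumors overlapped it. In RAS tumors the log2 fold change was -2.02 ± 0.58 (adjusted p = 0.00671), which held under every alternative that kept the gene. Tom1l1, with 2414 reads against 92, was lower in RAS tumors too (-0.57, adjusted p = 0.01). Cox15, which makes heme a for the oxidase, was not called (-0.53 and -0.32 against normal).

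ATP synthase was mixed, with lower alpha and delta subunits in both tumor groups and a higher epsilon subunit in RAS tumors. Of 5 tested genes of F1 and the central stalk, 2 were lower in PDGFB tumors, and 2 lower and 1 higher in RAS tumors. Of 7 tested stator and membrane genes, 1 was lower in PDGFB tumors and none was called in RAS tumors. Among all tested genes 25.1% were lower in PDGFB tumors, and 29.3% lower and 26.9% higher in RAS tumors. These counts are too small to compare with those shares. Atp5b, the catalytic beta subunit (chromosome 10, 128083273 to 128090391, plus strand, no opposite exon), had 98, 109, 96, 112 and 96 reads in PDGFB tumors, 124, 95, 106, 124 and 122 in RAS tumors and 97, 74 and 113 in normal brain. The 3 groups overlapped. Its log2 fold changes were -0.21 ± 0.19 (adjusted p = 0.382), 0.08 ± 0.19 (adjusted p = 0.728) and, between tumors, -0.30 ± 0.17 (adjusted p = 0.181), the first turning to 0.02 under library totals.

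Atp5a1, the alpha subunit that forms the catalytic ring with beta (opposite Haus1), had 66, 58, 65, 54 and 44 reads in PDGFB tumors, 48, 60, 69, 61 and 57 in RAS tumors and 84, 74 and 78 in normal brain. Every tumor was below every normal brain in CPM. Log2 fold changes were -0.79 ± 0.22 (adjusted p = 0.00651) and -0.61 ± 0.22 (adjusted p = 0.0231). The first call ended without normal brain 1 or 2 (adjusted p 0.0523 and 0.0592), and the second on leaving out RAS tumor 1, 4 or 5, or one of those normal brains (adjusted p 0.0687 to 0.147). Haus1 had 59 reads in all and was not tested.

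Atp5d, the delta subunit of the rotating stalk (opposite Cbarp), had 9, 11, 10, 8 and 9 reads in PDGFB tumors, 7, 12, 11, 9 and 15 in RAS tumors and 18, 20 and 22 in normal brain. Again every tumor was below every normal brain. The log2 fold changes were -1.41 ± 0.31 (adjusted p = 0.00128), held under every alternative that kept the gene, and -1.08 ± 0.30 (adjusted p = 0.00605), which ended with the low-count filter removed (adjusted p = 0.0626). Cbarp was not called (-0.22 and 0.02).

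Atp5e, the epsilon subunit of the same stalk, rose in RAS tumors. It had 4, 7, 2, 6 and 9 reads in PDGFB tumors, 8, 12, 11, 9 and 24 in RAS tumors and 3, 4 and 2 in normal brain. RAS tumors lay above normal brain, with RAS tumor 5 far above the rest, and overlapped PDGFB tumors. Log2 fold changes were 1.86 ± 0.57 (adjusted p = 0.00976) against normal, ended without normal brain 3 (adjusted p = 0.0529), and -1.31 ± 0.43 (adjusted p = 0.0254) for PDGFB against RAS tumors, ended without PDGFB tumor 1 or 3 or RAS tumor 5 (adjusted p 0.0598 to 0.103).

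Atp5c1, the gamma subunit that turns inside the ring, was lower in PDGFB than in RAS tumors (36.5 ± 7.16 against 51.6 ± 8.24 CPM, n = 5 each), with PDGFB tumor 3 inside the RAS range. The log2 fold change was -0.64 ± 0.23 (adjusted p = 0.0419). It was lost on leaving out any library but PDGFB tumor 3, RAS tumor 2, RAS tumor 4 or normal brain 3 (adjusted p 0.0529 to 0.0972), and under DESeq2, library totals, no low-count filter and the refit of genes with no opposite exon (0.0552 to 0.272). Atp5g1, 1 of the genes of the proton-carrying c ring, was lower in PDGFB tumors (4, 7, 2, 4 and 4 reads against 11, 12 and 6), overlapping normal brain, at -1.52 ± 0.53 (adjusted p = 0.0271). The call was lost on leaving out PDGFB tumor 3, or else normal brain 1 or 2 (adjusted p 0.057 to 0.156). Atp5f1, the b subunit of the stator and the most abundant stator gene (opposite Wdr77 and Gm42890), had 111 to 181 reads in PDGFB tumors, 103 to 167 in RAS tumors and 81 to 110 in normal brain and was not called (0.28, 0.27 and 0.01).

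Genes that work beside the complexes were read from lists chosen with earlier results known. For scale, 20.2% of all tested genes rose and 25.1% fell in PDGFB tumors, and 26.9% rose and 29.3% fell in RAS tumors. Between the tumors, 17.4% were lower in PDGFB than in RAS tumors. The lists are too short to compare with these shares. Of 8 tested electron and adenine nucleotide carriers, 1 rose and 1 fell in PDGFB tumors, 2 rose and 1 fell in RAS tumors, and 2 were lower in PDGFB than in RAS tumors. Vdac1, a channel of the outer membrane, fell the most in PDGFB tumors (log2 fold change -1.94, adjusted p = 6.9e-05). Of 10 tested further assembly factors, 2 rose in PDGFB tumors and 1 rose and 1 fell in RAS tumors; Sdhaf1, which helps complex II take up iron-sulfur clusters, rose in PDGFB tumors (2.36, adjusted p = 0.00108). Of 6 tested regulators of nuclear respiratory genes, 1 fell in PDGFB tumors, and 2 rose and 1 fell in RAS tumors, where the nuclear receptor gene Esrra reached 1.65 (adjusted p = 0.00192). Sdhaf1 and Esrra lie opposite an exon of another gene.

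The tricarboxylic acid cycle, which makes the NADH and succinate that the chain oxidises, was lower as a sum in both tumor groups: 439 to 458 CPM in PDGFB tumors and 392 to 440 in RAS tumors, against 488 to 504 in normal brain, with no overlap on either scale. Of 14 tested genes, 4 fell in PDGFB tumors and 5 in RAS tumors, and none rose, beside 25.1% and 29.3% of all tested genes that fell. Sucla2, a subunit of succinate-CoA ligase, had the largest called fall in PDGFB tumors (-1.49, adjusted p = 0.00441).

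Mitochondrially encoded genes set a contrast with the nuclear set. All 7 tested ones, of 13, were lower in PDGFB tumors (median log2 fold change -1.82) and in RAS tumors (median -1.32), and 3 of 7 were lower in PDGFB than in RAS tumors. The shares of all tested genes lower in these comparisons were 25.1%, 29.3% and 17.4%. mt-Nd2 had the largest change, -2.29 in PDGFB tumors (adjusted p = 1.78e-07) and -1.69 in RAS tumors. Leaving out mt-Nd6, which lies opposite mt-Nd5 and holds most of the reads, the 12 others summed to 4415 to 5398 CPM in PDGFB tumors, 5523 to 7808 in RAS tumors and 12448 to 14993 in normal brain, with no overlap between any pair of groups. The log2 ratio of the group means was -1.47 and -1.19 against normal, beside -0.19 and 0.05 for the 70 nuclear genes with no opposite exon, all by library totals. The difference between the 2 genomes was not tested.

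Markers of cell types moved with the same groups. Beside the counts below, 20.2% of all tested genes rose and 25.1% fell in PDGFB tumors, and 26.9% rose and 29.3% fell in RAS tumors. Of 16 tested neuron markers, 15 fell in PDGFB tumors and 13 in RAS tumors, and none was without reads in any group. Their sum was 384 to 858 CPM in PDGFB tumors, 4175 to 8586 in RAS tumors and 6230 to 6643 in normal brain. Nefm (opposite Nefl) alone gave 3468 to 8196 CPM in RAS tumors, whereas Snap25 gave 0 to 68.9 there and 373 to 440 in normal brain. Mature oligodendrocyte markers summed to 808 to 892, 597 to 919 and 1593 to 2325 CPM (PDGFB tumors, RAS tumors, normal brain), with 4 and 5 of 6 tested falling against normal, and Opalin had no read in RAS tumors. Oligodendrocyte precursor markers rose in 6 of 6 in PDGFB tumors (534 to 775 CPM, against 46.3 to 62.4) and in 3 of 6 in RAS tumors (87.1 to 290 CPM). Macrophage and microglia markers rose in 5 of 7 in RAS tumors (624 to 970 CPM, against 369 to 407). In PDGFB tumors 2 of those 7 rose and 1 fell (328 to 430 CPM). Markers of dividing cells rose in 6 of 7 in both tumor groups. Astrocyte markers summed to 212 to 512, 117 to 657 and 620 to 795 CPM, with 3 of 7 falling in each tumor group. Markers of skeletal muscle, endothelium and red blood cells were too low to test. Skeletal muscle markers summed to 0 to 4.96, 0 to 6.22 and 15.3 to 33.1 CPM (same order), with normal brain above all tumors. Endothelial markers summed to 3.31 to 28.1, 22.1 to 62.2 and 11.6 to 15.3 CPM, and red blood cell markers overlapped between all groups. The part of these cell types in the values of the respiratory genes was not tested.

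RAS tumor 5 stood apart from the other RAS tumors for genes with no opposite exon. Those 70 summed to 1414 CPM there and to 916 to 1085 in RAS tumors 1 to 4, a ratio of 1.42 to their mean, while the 33 opposite an exon summed to 1130 against 1051 to 1128, a ratio of 1.03. It was at least 2-fold above the mean of the others for 18 of the 70 and 3 of the 33. Only 5 of the 18 were tested, and the rest had too few reads for it. The share of all genes at that level was not computed. The 32 tested genes with no opposite exon summed to 1059 CPM in RAS tumor 5 and 765 to 885 in the others, a ratio of 1.29. Among these 32, RAS tumor 5 was the highest RAS library for 15 (46.9%), against 24.0% of all tested genes with no opposite exon. Ndufb8, a membrane-arm subunit of complex I, had 25 reads in RAS tumor 5 and 2, 4, 2 and 2 in RAS tumors 1 to 4. Uqcrq, a small subunit of complex III, had 30 against 5, 7, 6 and 5, and Ndufb7 28 against 7, 5, 10 and 2. These 3 did not pass the low-count filter, and they and this tumor were singled out after their values were seen.

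**Figure D4:**
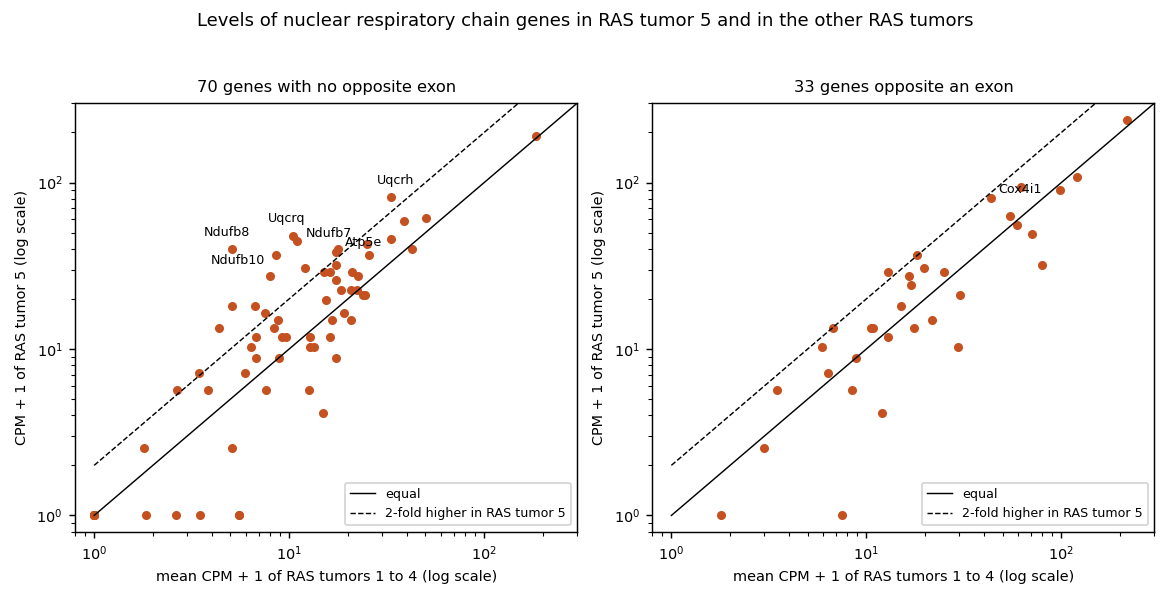
CPM + 1 of each gene in RAS tumor 5 against the mean of RAS tumors 1 to 4, on log axes, for the 70 genes with no opposite exon (left) and the 33 opposite an exon (right). Points above the dashed line are more than about 2-fold higher in RAS tumor 5; Ndufb8, Uqcrq and Ndufb7 stand out on the left, and fewer points lie there on the right.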

How the data were processed

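RNA of 10 tumors and 3 normal brains was sequenced with a TruSeq RNA kit, per the labels' protocols. The authors deposited raw counts, whole reads per Ensembl gene; fastp 0.22.0, STAR 2.7.9a and GRCm38 are named per the submitters' processing notes, while the annotation and strand setting are not given in the sources used here. Groups came from titles and the tissue label. Rows that name no gene (84.5% to 87.3% of reads fell in no gene) stayed out of totals. GENCODE M21 held 52135 of the 55416 gene identifiers. The whole table was fitted with edgeR 4.0.16 in R 4.3.3 (filterByExpr, minimum count 10 and total 15; TMM; 1 coefficient per group; quasi-likelihood test, two-sided; Benjamini-Hochberg adjusted p under 0.05), a step checked on simulated data. Alternatives were DESeq2 1.42.0, limma-voom (limma 3.58.1), scaling by library totals or by median-of-ratios factors, no low-count filter, a refit of genes with no opposite exon, leaving out each library and a replicate block. CPM used the total counted for genes, and RPKM the union of exons. The SE of a log2 fold change was derived from the test, as the absolute change divided by the square root of its F statistic. The members and lists were chosen with earlier results of these data known. Named genes were Sdha, Ndufs1, Atp5b, every called gene but 1, the most abundant tested gene per class, common counterparts of restricted isoforms and 1 gene per further list; other genes were named after their values were seen. No 2 replicates agreed within sampling noise (lowest chi-square per degree of freedom 1.69 over 23 pairs). One tested gene of the set enters all counts and is not reported here by name.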

Additional observations from a re-analysis of the deposited data

Results flagged for a closer look

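Single libraries lay far from the rest of their group for 6 values among the 62 groups of 5 tumors examined, where chance flags about 1 in 20. RAS tumor 5 was high for Atp5e (37.3 CPM, the other RAS tumors 13.1 to 19.7) and for Cox4i1 (79.3 CPM, the others 38.2 to 49.3). RAS tumor 3 was high for Ndufa4 (17.0 CPM, the others 9.33 to 11.5) and RAS tumor 2 for Cox6c (77.1 CPM, the others 50.9 to 54.4). PDGFB tumor 3 was high for Atp5c1 (48.9 CPM, the other PDGFB tumors 31.4 to 36.1) and PDGFB tumor 4 for Cox8a (39.7 CPM, the others 18.1 to 23.2).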

How the results depend on the processing

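Calls were few and many lay near the threshold. Of 637 values of named genes under alternatives, 521 kept direction and side of the threshold, 111 kept direction and lost the call, 4 gained it (Sdha in RAS tumors) and 1 turned (Atp5b in PDGFB tumors, 0.020 on the log2 scale under library totals). Called genes numbered 12, 10 and 6 (PDGFB against normal, RAS against normal, PDGFB against RAS). A fit of the genes with no opposite exon, which holds only 32 of the 53, gave 4, 3 and 2. With no low-count filter PDGFB tumors gave 6 calls against normal and 2 against RAS tumors, and with library totals 7 against normal; the cause was not tested. Without 1 library they ran from 5 to 13, 6 to 12 and 4 to 9. Shared replicate numbers of the tumors do not pair the samples: same-numbered deviations correlated at 0.139, -0.018, -0.0243, -0.128 and 0.0803, and 1 of 5 tumors correlated best with its own number. With the replicate block 4 genes were called between the tumors, without Cox5b (adjusted p = 0.0537) and Atp5c1 (adjusted p = 0.0937). Depth limits single genes: the median SE of the tested genes of the set was 0.391, 0.390 and 0.333 on the log2 scale.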
